A study of Mus musculus with 4 samples.

Results

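The genes described here build the chondroitin sulfate matrix of the brain and its perineuronal nets, the lattices of extracellular matrix that wrap some neurons. They are the lecticans Acan, Bcan, Ncan and Vcan, the link proteins Hapln1 and Hapln4, the tenascins Tnr and Tnc, and the receptor phosphatase Ptprz1. The rule that sets the members is a list of gene names, drawn up with earlier results of these data known, and they are 9 of the 33981 genes in the joined tables. Each of the 24 libraries, 6 in each of 4 groups, was made from RNA of a coronal brain section with the prefrontal cortex in it. All mice were male C57BL/6J aged 3 to 5 months, carried an osmotic pump for 28 days and had surgery on day 7. NT + Sham mice received saline and sham surgery, and NT + Stroke mice received saline and photothrombotic stroke. In HT + Sham and HT + Stroke mice the pump held angiotensin II (0.28 mg/kg/day), and surgery was sham or stroke, respectively. Photothrombosis closes vessels in a lit patch of cortex, so a section can hold the infarct together with uninjured tissue, and each value is an average over both. The comparisons address whether stroke, angiotensin II or both together change these transcripts.

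Lecticans are core proteins that carry chondroitin sulfate chains. Their N-terminal ends bind hyaluronan, link proteins hold that bond, and their C-terminal ends are joined by tenascin-R, so that hyaluronan, lectican, link protein and tenascin-R form the net. Nets in cortex are best known around fast-spiking interneurons that express parvalbumin, and aggrecan, the product of Acan, is the lectican most used to stain them. Glia around a cortical injury lay down chondroitin sulfate proteoglycans and tenascin-C, a matrix that is known to restrain the growth of axons.

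Vcan and Hapln1 lie 43.7 kb apart on chromosome 13, and Ncan and Hapln4 lie 2.2 kb apart on chromosome 8. Each of these pairs holds a lectican next to a link protein, with 0 annotated genes between them, and the pairs Bcan with Hapln2 and Acan with Hapln3 are built the same way. Bcan spans chromosome 3, 87987531 to 88000230, Ncan chromosome 8, 70093085 to 70120873, and Vcan chromosome 13, 89655312 to 89742509, all on the minus strand. Hapln1 spans chromosome 13, 89539796 to 89611652, and Ptprz1 chromosome 6, 22875502 to 23052916. Acan spans chromosome 7, 79053483 to 79115099, on the plus strand, and Hapln3 begins 2 bases beyond its end on the opposite strand. Hapln4 spans chromosome 8, 70083457 to 70090862, on the plus strand. Tnc spans chromosome 4, 63959785 to 64047015, and Tnr chromosome 1, 159523769 to 159931729. Positions are on GRCm38, as the tables give them. Whether the counting used strand is not given in the sources used here, so reads near the shared end of Acan and Hapln3 cannot be assigned with certainty. Of the 9 members, 8 have a promoter sequence in the RefSeq table for GRCm38.p6. The 250 bases before the start are shown for Acan, Tnc and Tnr, 3 of the 4 members that passed a test of stroke against sham, with motif matches on either strand in capitals.
Acan, chr7:79052976-79053225, plus strand: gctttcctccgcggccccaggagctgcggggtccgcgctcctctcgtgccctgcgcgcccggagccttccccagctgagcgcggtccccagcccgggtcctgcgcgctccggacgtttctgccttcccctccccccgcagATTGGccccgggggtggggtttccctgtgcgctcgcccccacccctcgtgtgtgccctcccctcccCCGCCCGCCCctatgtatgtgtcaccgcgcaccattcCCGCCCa
Tnc, chr4:64047016-64047265, minus strand: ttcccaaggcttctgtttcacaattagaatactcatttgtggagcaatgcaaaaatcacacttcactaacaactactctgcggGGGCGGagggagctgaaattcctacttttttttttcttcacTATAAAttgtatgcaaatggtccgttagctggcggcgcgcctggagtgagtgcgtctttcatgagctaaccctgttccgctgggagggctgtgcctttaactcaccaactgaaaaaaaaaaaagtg
Tnr, chr1:159523519-159523768, plus strand: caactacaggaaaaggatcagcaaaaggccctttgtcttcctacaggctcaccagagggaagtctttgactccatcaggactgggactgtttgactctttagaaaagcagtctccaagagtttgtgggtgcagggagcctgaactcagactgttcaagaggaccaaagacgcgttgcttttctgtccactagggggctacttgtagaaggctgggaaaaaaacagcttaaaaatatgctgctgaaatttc
The motifs searched were the TATA box (TATAAA), the GC box (GGGCGG), the CCAAT box (CCAAT), the AP-1 site (TGANTCA) and the cyclic AMP response element (TGACGTCA). The Acan window is 74.4% G and C with 26 CpG pairs, and it holds 3 GC boxes and 1 CCAAT box. The table lists 2 starts for Tnc, and the window of the start farther upstream is shown. That window is 44.8% G and C and holds 1 TATA box and 1 GC box, and the Tnr window is 46.8% G and C and holds 0 of the 5 motifs. Among 32851 promoter windows of the same length, 32.7% hold the GC box, 33.8% the CCAAT box, 12.4% the TATA box, 6.75% the AP-1 site and 1.55% the cyclic AMP response element. These matches describe the letters of the windows and were not tested as binding sites.

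Libraries differed in ways that their labels do not give, and 3 stood apart. Summed CPM, counts scaled to a common library size, of the 5 reactive astrocyte markers Gfap, Vim, Serpina3n, Cd109 and S1pr3 ran from 220.2 to 256.4 in NT + Sham and from 823.7 to 1411 in NT + Stroke. HT + Stroke libraries 1 and 6 had 343.8 and 324.2, against 1169 to 1814 in the other 4, and HT + Sham library 6 had 711.8, against 235.7 to 319.7 in the other 5. The microglial and fibroblast marker sums of these 3 libraries stood apart in the same direction, so the injury markers of the 3 libraries went against their labels. The summed CPM of 5 olfactory bulb markers ran from 323.4 to 950.3 and that of 6 striatal markers from 165.5 to 1926 over the 24 libraries, and 0 genes of either list were at 0 in any group. Markers of excitatory cortical neurons, the cells the label implies, summed to at least 1826 CPM in every library. Total counts per library ran from 15922919 to 24865998. In bulk tissue, fewer cells of a type and less RNA per cell cannot be told apart.

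**Figure D1:**
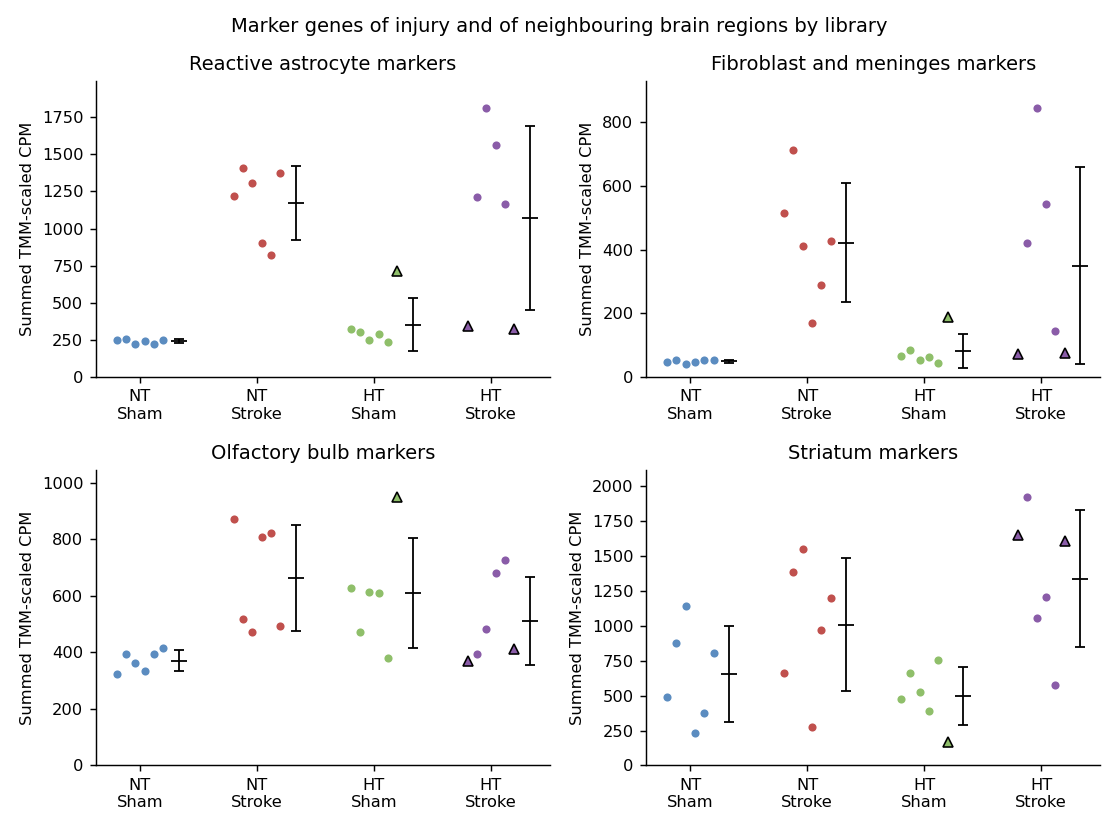
Summed TMM-scaled CPM (y axis) of marker genes in each library (points, numbered 1 to 6 from left to right within a group), with the mean and SD of 6 libraries beside them. Triangles are HT + Stroke libraries 1 and 6 and HT + Sham library 6, whose reactive astrocyte sums of 343.8, 324.2 and 711.8 differ from those of the rest of their groups, and bulb and striatal sums vary several-fold within groups.

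Bcan, which encodes brevican, the lectican of adult neurons and glia, had the highest level per length of the 9 genes in every group. In NT + Sham its level was 86.9 ± 8.27 FPKM (SD, n = 6), a unit that divides reads by gene length and library size. Hapln4, whose product binds brevican, followed with 39.5 ± 2.18 FPKM, and Ncan, which encodes neurocan, with 21.6 ± 1.58 FPKM. Ptprz1 (6.30 ± 0.603 FPKM) and Tnr (5.59 ± 1.03 FPKM) came next, and their ranges overlapped in NT + Sham, HT + Sham and HT + Stroke but not in NT + Stroke. Hapln1 had 2.25 ± 0.256 FPKM, and its range overlapped that of neither neighbour in the order in any group. The other low genes were Vcan at 0.720 ± 0.0483 FPKM and Acan at 0.504 ± 0.0927 FPKM, which overlapped each other in every group, and Tnc at 0.228 ± 0.0974 FPKM. The order from Bcan to Tnc was the same in all 4 groups, and the only other overlap of neighbours was that of Acan and Tnc in HT + Stroke. Tnc was counted 12 to 86 times and Acan 37 to 169 times per library, while Bcan was counted 5526 to 10107 times, so the values of Tnc and Acan carry more counting error.

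**Figure D2:**
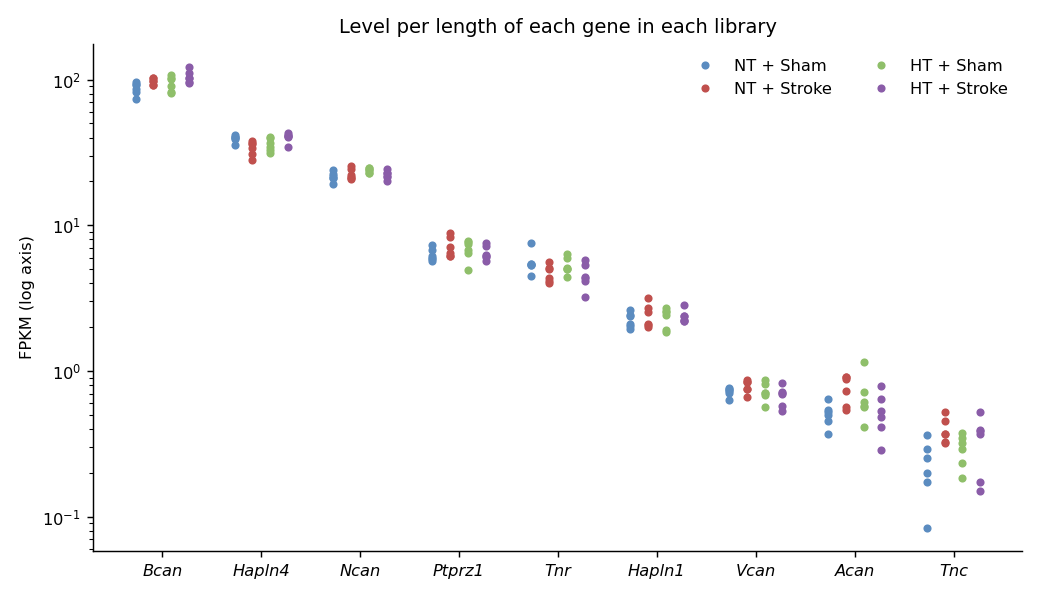
Deposited FPKM (y axis, log scale) of the 9 genes (x axis, ordered by their mean in NT + Sham) in each of the 24 libraries, coloured by group. Bcan lies at the top between 73.3 and 122 FPKM and Tnc at the bottom between 0.0837 and 0.525 FPKM, and the order of the genes is the same in the 4 groups.

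Brevican and neurocan together made up nearly all of the lectican transcript. By FPKM, Bcan took 79.1 ± 2.49% (SD, n = 6) of the sum of the 4 lecticans in NT + Sham, 80.2 ± 1.76% in NT + Stroke, 78.7 ± 2.08% in HT + Sham and 81.7 ± 1.74% in HT + Stroke. Ncan took 19.8 ± 2.35% in NT + Sham and 17.4 ± 1.62% in HT + Stroke. The share of Vcan, which encodes versican, was 0.658 ± 0.0603% in NT + Sham, and the share of Acan was 0.464 ± 0.110% there and 0.623 ± 0.152% in NT + Stroke. These shares are a description and were not tested. The summed FPKM of the 4 lecticans was 109.7 ± 7.76 in NT + Sham, 121.5 ± 4.66 in NT + Stroke, 119.2 ± 11.2 in HT + Sham and 128.3 ± 10.4 in HT + Stroke, and these ranges overlapped.

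In NT mice, Acan and Tnc were higher and Hapln4 was lower after stroke than after sham surgery, and none of the 3 passed once regional markers entered the fit. With edgeR's quasi-likelihood test and adjustment over all 16835 genes tested, 2 of the 9 members were higher and 1 was lower in NT + Stroke than in NT + Sham, beside 14.4% of all genes higher and 11.5% lower. A count of 3 in 9 is no result about the group as a whole beside that background. The median log2 fold change was 0.08 over the members and -0.01 over all genes tested.

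Acan encodes aggrecan, the main lectican of nets. Its level in NT + Sham was 2.85 CPM at the lowest, 3.87 at the median and 4.78 at the highest, and in NT + Stroke the same values were 3.90, 5.79 and 6.49. The groups overlapped, and 6 of 6 stroke libraries lay above the sham median, with libraries 1, 4 and 5 highest at 6.49, 6.35 and 6.49 CPM. Its log2 fold change was 0.54 (SE 0.16, edgeR adjusted P = 0.0215). Without NT + Stroke library 5 it was 0.48 and the adjusted P was 0.0519, and with all 4 groups in 1 fit the adjusted P was 0.0874.

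Tnc encodes tenascin-C, a glycoprotein of the developing brain that returns at sites of injury. In NT + Sham it was counted at 0.662 CPM at the lowest, 1.79 at the median and 2.80 at the highest, and in NT + Stroke at 2.35, 2.79 and 3.91. Of the sham libraries, 5 lay below every stroke library and library 5 lay inside the stroke range. Stroke over sham gave a log2 fold change of 0.74 (SE 0.25, edgeR adjusted P = 0.0380). The call rested on few reads, and it was lost in 7 of the 12 fits that left out a library. The adjusted P was 0.0813, 0.0540, 0.0608 and 0.0536 without NT + Sham library 1, 2, 3 or 6, and 0.0506, 0.0669 and 0.0901 without NT + Stroke library 3, 4 or 5, and the size of the difference ranged from 0.58 to 0.93 on the log2 scale. With all 4 groups in 1 fit the adjusted P was 0.0594.

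Hapln4 encodes brain link protein 2, which is known from nets and from inhibitory synapses of the hindbrain. Its level in NT + Sham ran from 144.2 through a median of 158.0 to 163.5 CPM, and in NT + Stroke from 105.2 through 134.4 to 143.5 CPM. In TMM-scaled CPM the groups did not overlap, which held for 1 of the 9 members and for 14.3% of all genes tested. In deposited FPKM they did overlap, with 35.4 to 41.8 in NT + Sham and 28.0 to 37.9 in NT + Stroke. Hapln4 fell by 0.26 on the log2 scale (SE 0.07, edgeR adjusted P = 0.0120), and the call held in all 12 fits that left out a library. Ncan, the neighbour of Hapln4 on chromosome 8, had a log2 fold change of 0.01 (SE 0.07, adjusted P = 0.917).

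**Figure D3:**
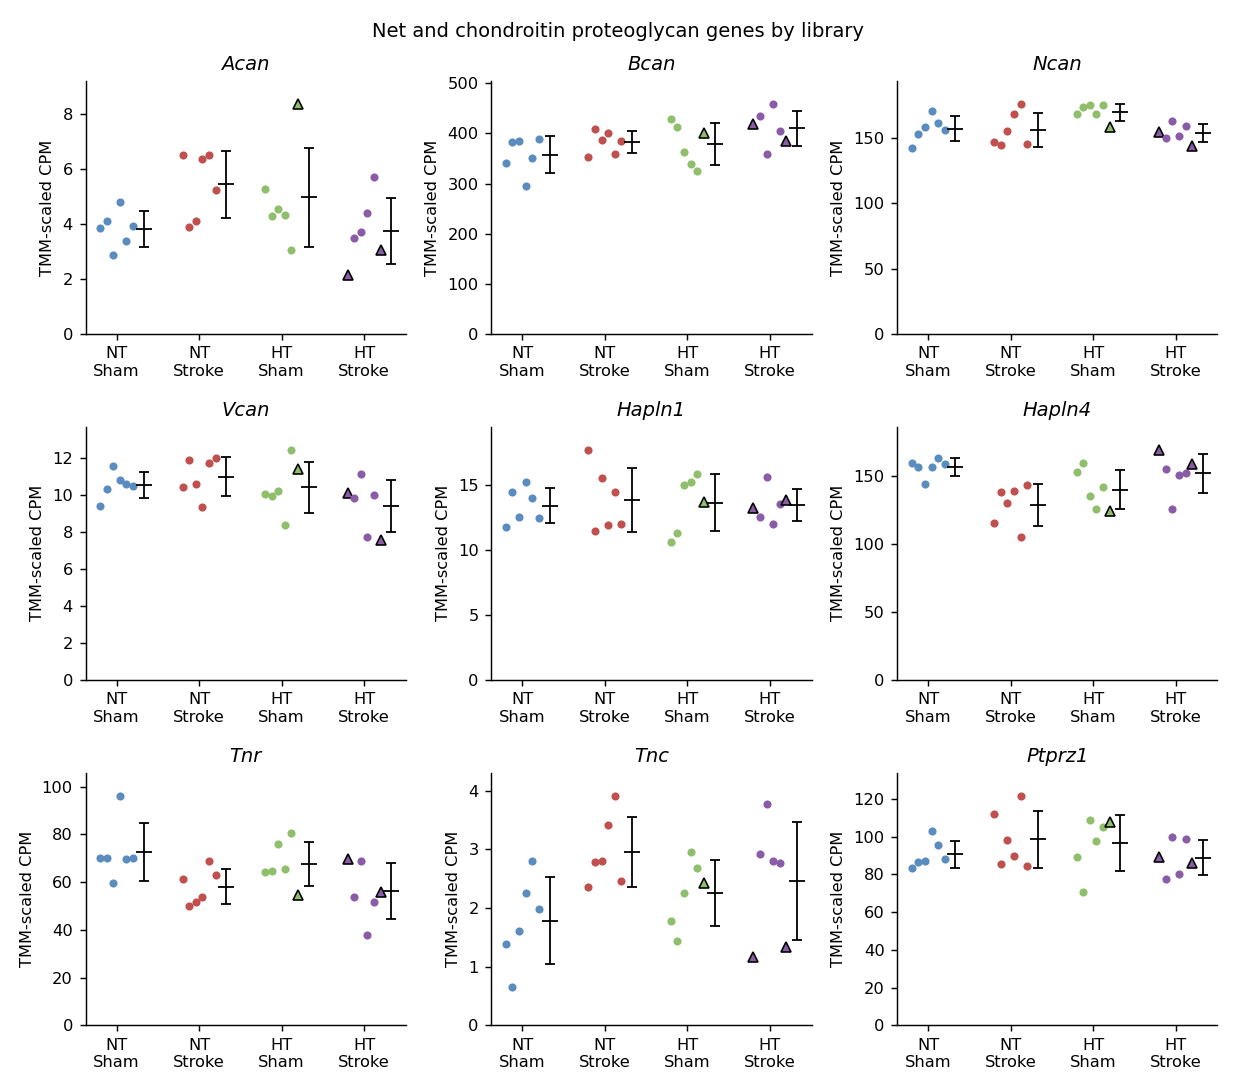
TMM-scaled CPM (y axes, from 0) of each gene in each library (points, libraries 1 to 6 from left to right within a group), with the mean and SD of 6 libraries beside them. Triangles mark HT + Stroke libraries 1 and 6 and HT + Sham library 6. On this scale, but not in FPKM, the NT groups of Hapln4 do not overlap (144.2 to 163.5 and 105.2 to 143.5 CPM).

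Olfactory bulb markers moved with Acan and opposite to Hapln4, and Tnc was not compared with them. The summed CPM of the bulb markers was 323.4 to 414.1 in NT + Sham and 472.2 to 871.0 in NT + Stroke. Doc2g, Pcp4l1 and Th, 3 of the 5 markers, passed the test as higher in NT + Stroke, beside 14.4% of all genes. Across libraries, the bulb score (the mean of log2(CPM + 1) over the list) was compared with log2 CPM of Acan, a relation chosen after the values were seen. In the 12 stroke libraries Pearson's r was 0.90 (permutation P = 6e-05) and Spearman's rho was 0.90 (permutation P = 0.00019), and r was 0.91 without the 2 libraries farthest from the median score. In the 12 sham libraries r was 0.84 (permutation P = 0.00077) and rho was 0.75 (permutation P = 0.0068). Without the 2 farthest libraries r was 0.54 (permutation P = 0.108), so the size of r among sham libraries depended in part on those 2. For Hapln4, r was -0.65 in stroke libraries (permutation P = 0.0217, rho -0.64, permutation P = 0.0298) and -0.65 in sham libraries (permutation P = 0.0210, rho -0.37, permutation P = 0.236). Without the 2 farthest libraries these were -0.48 and -0.65. With the striatal score, Acan had an r of -0.69 in stroke libraries (permutation P = 0.0126, rho -0.81, permutation P = 0.00215, and -0.72 without the 2 farthest) and -0.78 in sham libraries (permutation P = 0.00308, rho -0.66, permutation P = 0.0221, and -0.50 without the 2 farthest). For Hapln4 with the striatal score r was 0.22 in stroke libraries (permutation P = 0.487, rho 0.44, permutation P = 0.154, and 0.67 without the 2 farthest) and 0.35 in sham libraries (permutation P = 0.261, rho 0.18, permutation P = 0.571, and 0.14 without the 2 farthest). Over the 8 relations with regional scores, the Benjamini-Hochberg adjusted P for the r of Acan with the bulb score was 0.00048 in stroke and 0.00308 in sham libraries, and that of Hapln4 with the same score was 0.0289 and 0.0289.

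With the bulb and striatal scores as covariates, 0 of the 9 members passed in NT + Stroke vs NT + Sham. The log2 fold change of Acan was 0.27 (SE 0.24, edgeR adjusted P = 0.700), that of Hapln4 -0.02 (SE 0.11, adjusted P = 0.965), and that of Tnc 0.75 (SE 0.43, adjusted P = 0.458). The value of Tnc was close to that without covariates and its error was larger, whereas the values of Acan and Hapln4 were smaller in size. The fit called 782 genes in all, against 4365 without the scores. Stroke and regional content of the section differed together in these mice and cannot be told apart.

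**Figure D4:**
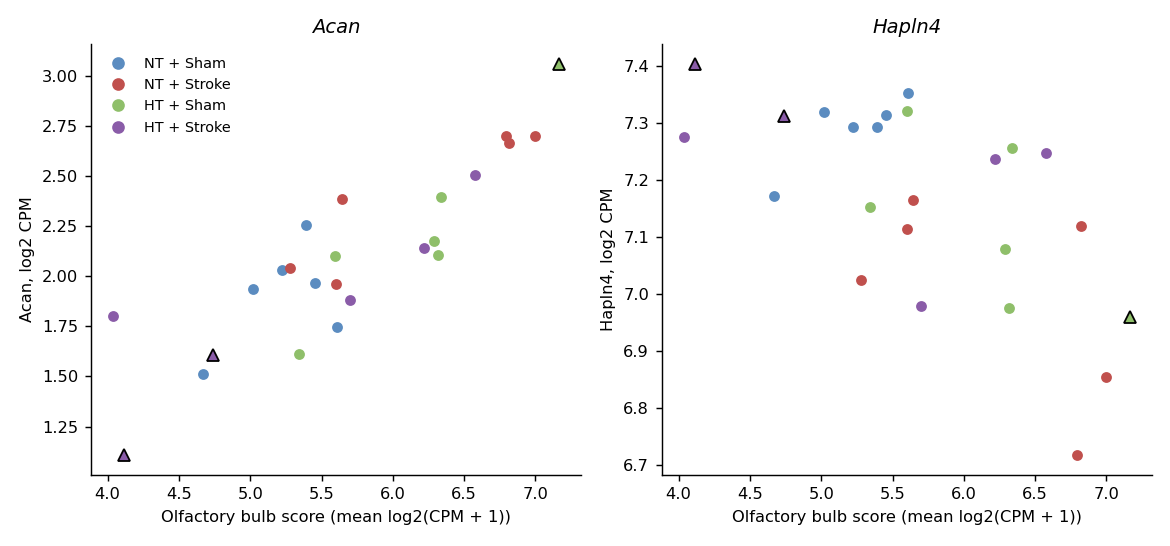
Log2 CPM (y axes) of Acan and Hapln4 against the olfactory bulb score (x axes, mean of log2(CPM + 1) over 5 markers) in the 24 libraries, coloured by group, with triangles for the 3 libraries that stood apart. Acan is high where the score is high (r 0.84 in sham and 0.90 in stroke libraries), and Hapln4 is low there (r -0.65 in both).

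In HT mice, 0 of the 9 members passed the test between HT + Stroke and HT + Sham with edgeR. DESeq2 and limma also called 0. Of all 16741 genes tested with edgeR, 0.544% were higher and 0.102% were lower, and DESeq2 called 907 of 18594 genes. In the edgeR fit 0 members had an unadjusted P under 0.05, beside 2842 of 16741 genes. Other settings gave an unadjusted P under 0.05 for Ncan or Tnr without a call, for example Ncan with DESeq2 (unadjusted P = 0.00648, adjusted P = 0.0917). The groups overlapped for all 9 members, and 1.15% of all genes did not overlap. This comparison shares no library with the one in NT mice.

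Acan in HT + Sham ran from 3.05 through a median of 4.41 to 8.35 CPM, and in HT + Stroke from 2.15 through 3.59 to 5.68 CPM. Its highest value, 8.35 CPM, was in HT + Sham library 6, which also had the highest bulb sum of all 24 libraries at 950.3 CPM, and its lowest, 2.15 CPM, was in HT + Stroke library 1. The log2 fold change was -0.38 (SE 0.25, edgeR adjusted P = 0.468), and it was 0.04 (SE 0.20, adjusted P = 0.943) without the 3 libraries that stood apart. Tnc in HT + Stroke was at 1.17 and 1.34 CPM in libraries 1 and 6 and between 2.77 and 3.78 CPM in the other 4. The lowest Tnc values of the stroke libraries were thus in the libraries with the lowest injury markers. The log2 fold change of Tnc was 0.16 (SE 0.28, adjusted P = 0.826) and without the 3 libraries 0.49 (SE 0.23, adjusted P = 0.230). Hapln4 ran from 124.4 through 138.7 to 159.9 CPM in HT + Sham and from 126.1 through 153.5 to 169.4 CPM in HT + Stroke, and stroke over sham was 0.14 on the log2 scale (SE 0.08, adjusted P = 0.422). Without the 3 libraries, 1155 genes in all were higher and 282 lower, against 91 and 17 with them, and still 0 members passed.

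**Figure D5:**
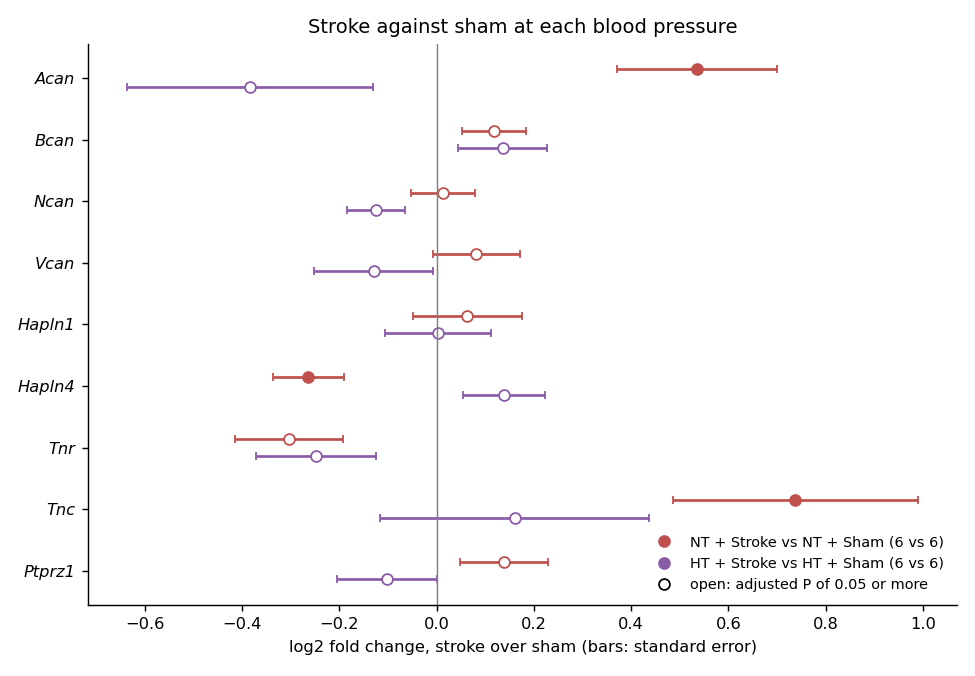
Log2 fold change of stroke over sham (x axis) with its standard error (bars) for each gene in NT mice and in HT mice, 6 against 6 libraries each. Filled points have an edgeR adjusted P under 0.05, which holds for Acan (0.54), Hapln4 (-0.26) and Tnc (0.74) in NT mice and for none of the 9 genes in HT mice.

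Whether stroke acted differently in HT and NT mice was tested by the interaction over all 24 libraries. With edgeR, 0 of the 9 members passed, as did 0% of the 17608 genes tested, and 2 members had an unadjusted P under 0.05, beside 10.4% of all genes. These were Acan, with a log2 difference of -0.92 (SE 0.31, unadjusted P = 0.00642, edgeR adjusted P = 0.322), and Hapln4, with 0.40 (SE 0.11, unadjusted P = 0.00162, edgeR adjusted P = 0.320). Both genes had stroke values of opposite sign in NT and HT mice, and the difference failed the correction over all genes. With the bulb and striatal scores as covariates the log2 differences were -0.16 (adjusted P = 1) and 0.22 (adjusted P = 1), and without the 3 libraries that stood apart they were -0.49 (adjusted P = 0.993) and 0.32 (adjusted P = 0.993).

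For angiotensin II, 0 of the 9 members passed in any comparison. Between HT + Sham and NT + Sham 0% of 16581 genes passed with edgeR (1332 at an unadjusted P under 0.05), and of the members Hapln4 had an unadjusted P under 0.05, with a log2 fold change of -0.16 (SE 0.07, unadjusted P = 0.0446, edgeR adjusted P = 0.612). Between HT + Stroke and NT + Stroke 0% of 17008 genes passed with edgeR (1230 at an unadjusted P under 0.05), and 2 members had an unadjusted P under 0.05. Acan was at a log2 fold change of -0.53 (SE 0.22, edgeR adjusted P = 0.654) and Hapln4 at 0.24 (SE 0.09, edgeR adjusted P = 0.654). Over both surgeries together, 0% of 17608 genes passed with edgeR (751 at an unadjusted P under 0.05) and 0 members had an unadjusted P under 0.05. DESeq2 and limma called 0 members in each of these 3 comparisons and in the interaction. The NT + Sham and NT + Stroke libraries serve here and in the test of stroke in NT mice, so the comparisons are not independent of each other.

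With all 24 libraries and 12 on each side, Tnr was lower after stroke, a call that was lost with regional markers in the fit. Tnr encodes tenascin-R, the protein that joins the lectican ends in a net. This was the only call, 0 higher and 1 lower of 9, beside 13.8% of 17608 genes higher and 11.4% lower. Tnr ran from 59.6 through a median of 70.0 to 96.2 CPM in NT + Sham, from 49.9 through 57.6 to 68.8 in NT + Stroke, from 54.7 through 65.1 to 80.8 in HT + Sham and from 38.0 through 54.9 to 69.5 in HT + Stroke. All 12 stroke libraries lay below the median of the 12 sham libraries, and the ranges overlapped. Tnr fell by 0.28 on the log2 scale (SE 0.09, edgeR adjusted P = 0.0157), and it was called in all 24 fits that left out a library. The call was lost with no scaling beyond library size (-0.25, adjusted P = 0.0677) and with limma on log2(FPKM + 1) (-0.20, adjusted P = 0.0555). In NT mice alone it was -0.30 (SE 0.11, adjusted P = 0.0542) and in HT mice alone -0.25 (SE 0.12, adjusted P = 0.320). Without the 3 libraries that stood apart it was -0.34 (SE 0.09, adjusted P = 0.00464), and with the bulb and striatal scores as covariates -0.21 (SE 0.12, adjusted P = 0.344).

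Tnc and Acan did not pass over both pressures with all libraries. Tnc had a log2 fold change of 0.44 (SE 0.20, edgeR adjusted P = 0.113), and of 0.63 (SE 0.18, adjusted P = 0.00800) without the 3 libraries that stood apart. Leaving out HT + Stroke library 1 alone gave 0.52 (adjusted P = 0.0375). HT + Stroke libraries 1 and 6 were set apart by low injury markers and had the lowest Tnc of the stroke libraries. Leaving them out raises the value by that choice, so these P-values are no separate support for a rise. Acan was at 0.07 (SE 0.18, adjusted P = 0.819), and at 0.32 (SE 0.14, adjusted P = 0.0732) without the 3 libraries.

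The remaining 5 members passed in no comparison. Bcan ran from 294.9 to 389.7 CPM in NT + Sham, from 352.3 to 408.1 in NT + Stroke, from 325.9 to 428.1 in HT + Sham and from 358.9 to 458.7 in HT + Stroke. Its log2 fold change for stroke over both pressures was 0.12 (SE 0.06, edgeR adjusted P = 0.116). The call depended on the scaling, since with no scaling beyond library size it was 0.16 (adjusted P = 0.0190) and limma on log2(FPKM + 1) gave 0.16 (adjusted P = 0.0304). Ncan ran from 142.1 to 176.2 CPM over all 24 libraries, with log2 fold changes of stroke of 0.01 in NT and -0.12 (SE 0.06, adjusted P = 0.304) in HT mice. Vcan, the versican gene of oligodendrocyte precursors and meninges, had values of 0.08 (SE 0.09) in NT and -0.13 (SE 0.12) in HT mice. Hapln1, the cartilage link protein gene that cortical neurons also use, had 0.06 (SE 0.11) and 0.00 (SE 0.11). Ptprz1, which encodes a phosphatase and chondroitin sulfate proteoglycan of astrocytes and their precursors, had 0.14 (SE 0.09) and -0.10 (SE 0.10).

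The genes around the members, 58 in 7 lists, gave 54 tested in NT mice, of which 12 were higher and 7 lower after stroke (median log2 fold change 0.04), beside 14.4% of all genes higher and 11.5% lower (median -0.01). The counts of the single lists below stand beside the same shares, and nothing is read from them about a list as a whole. In HT mice 0 of 54 passed with edgeR, beside 108 of all 16741 genes, and 0 with limma. DESeq2 called 3, beside 907 of 18594 genes, and the fit of all 4 groups called 3, beside 1125 of 17608. Without the 3 libraries that stood apart 7 of 55 passed, beside 1437 of 16956 genes. Over both pressures 11 of 56 were higher and 8 lower, beside 13.8% and 11.4% of all genes. With the regional scores as covariates 4 were higher and 1 lower, beside 895 and 273 of 17608 genes.

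Hyaluronan, the backbone of the net, is bound by Cd44, the main cell surface receptor. Cd44 rose in NT mice from 1.96 ± 0.339 to 9.73 ± 2.49 CPM (SD, n = 6), a log2 fold change of 2.32 (SE 0.18, edgeR adjusted P = 1.32e-07). Hyal1, a hyaluronidase, rose from 2.99 ± 0.517 to 4.68 ± 1.08 CPM (adjusted P = 0.00727). These were 2 of 7 tested genes of the list, with 0 lower, beside 14.4% of all genes higher. Hyal1 did not pass over both pressures (0.39, adjusted P = 0.0776), and Cd44 was the only 1 of 7 that passed in NT mice with the regional scores as covariates (2.54, adjusted P = 2.93e-05). Cd44 also passed in HT mice without the 3 libraries that stood apart (2.74, adjusted P = 8.69e-05). Those libraries were set apart by their injury markers, so that fit is no separate support for a rise. Markers of microglia and of fibroblasts rose as well, 5 of 5 each in NT mice, and their part in this was not tested.

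Of 14 genes that build chondroitin chains, 2 were higher and 2 lower in NT mice, beside 14.4% of all genes higher and 11.5% lower. Xylt1, the xylosyltransferase that starts the chain, fell from 38.6 ± 6.58 to 29.9 ± 4.19 CPM (log2 fold change -0.35, edgeR adjusted P = 0.0326), and over both pressures by 0.39 on the log2 scale (adjusted P = 0.00200). Dse, an epimerase that turns chondroitin into dermatan, rose from 3.93 ± 0.521 to 7.24 ± 1.51 CPM (log2 fold change 0.90, adjusted P = 1.68e-04), while its paralog Dsel fell from 14.04 ± 1.22 to 11.2 ± 1.16 CPM (log2 fold change -0.31, adjusted P = 0.0200). The fourth call was Chsy1, a chain polymerase outside the naming rule and chosen after its values were seen, at 0.26 (SE 0.09, adjusted P = 0.0449). Csgalnact1, which adds the first galactosamine, had a log2 fold change of -0.12 (SE 0.10). Of the 7 sulfotransferases tested, Chst14, which sulfates dermatan, was the only one called, at a log2 fold change of 0.69 (SE 0.17, adjusted P = 0.00569). Chst3, which makes the 6-sulfated form, was at -0.02 (SE 0.20) in NT and 0.62 (SE 0.26, adjusted P = 0.241) in HT mice, and Chst7 and Chst15 were at 0.42 (SE 0.21) and 0.06 (SE 0.08) in NT mice. With the regional scores as covariates, 0 of the 14 chain genes and 0 of the 7 sulfotransferases passed in NT mice, and Xylt1 was at -0.33 (adjusted P = 0.222), Dsel at -0.04 (adjusted P = 0.959), Dse at 0.84 (adjusted P = 0.0919), Chsy1 at 0.09 (adjusted P = 0.887) and Chst14 at 0.75 (adjusted P = 0.242).

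Of the other proteoglycans, 3 of 8 were higher and 1 was lower in NT mice, beside 14.4% and 11.5% of all genes. Dcn, the decorin gene of fibroblasts, rose from 9.65 ± 1.54 to 53.0 ± 14.4 CPM in NT mice (log2 fold change 2.47, SE 0.18, edgeR adjusted P = 8.61e-07), and Bgn, its relative biglycan, from 23.8 ± 3.26 to 75.4 ± 18.2 CPM (1.68, SE 0.15). Srgn, the proteoglycan of blood cell granules, rose by 0.78 on the log2 scale (SE 0.11). Spock1, a proteoglycan of neurons, fell from 191.4 ± 13.7 to 134.7 ± 9.16 CPM (log2 fold change -0.49, SE 0.07, adjusted P = 2.57e-05). With the regional scores as covariates the 3 rises were called (adjusted P = 0.00624, 0.0232 and 0.0463) and Spock1 was at -0.28 (adjusted P = 0.164). Fibroblast and meningeal markers, of which Dcn is 1, summed to 40.6 to 53.1 CPM in NT + Sham and 170.3 to 713.7 CPM in NT + Stroke, and excitatory cortical markers to 2807 to 3569 and 1923 to 2695 CPM, and their part in these changes was not tested.

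Of the proteases that cut lecticans and their inhibitor, 4 of 8 were higher and 0 lower in NT mice, beside 14.4% and 11.5% of all genes. Adamts9 had a log2 fold change of 1.18 (SE 0.26, edgeR adjusted P = 0.00215), Adamts15 of 0.66 (SE 0.16, adjusted P = 0.00435) and Adamts1 of 0.73 (SE 0.22, adjusted P = 0.0198), these 3 with 6 of 6 stroke libraries above the sham median. The fourth was Adamts5, named after its values were seen, at 0.83 (SE 0.18, adjusted P = 0.00215). Adamts8 was at -0.18 (SE 0.20). These are low transcripts, and Adamts9 had 15 to 38 counts in NT + Sham and 40 to 74 in NT + Stroke. In HT mice Adamts9, Adamts15 and Adamts1 had log2 fold changes of 0.65, 0.28 and 0.33, none of them called. With the regional scores as covariates, Adamts1 was the only 1 of 8 called in NT mice (1.49, adjusted P = 0.00998), and Adamts9 was at 0.69 (adjusted P = 0.424).

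The last list holds receptors of chondroitin sulfate, genes related to them and ligands held in nets. Of these, 4 of 8 tested were lower and 0 higher in NT mice, beside 11.5% and 14.4% of all genes. Over both pressures 5 of 9 were lower and 1 higher, beside 11.4% and 13.8% of all genes. With the regional scores as covariates 1 of 9 was lower there and 0 higher, beside 273 and 895 of 17608 genes. Rtn4rl2, a Nogo receptor family member, fell from 81.9 ± 10.8 to 56.8 ± 6.56 CPM (log2 fold change -0.50, SE 0.08, edgeR adjusted P = 2.35e-04), and Nptx2, a pentraxin secreted onto parvalbumin neurons, fell from 68.8 ± 9.33 to 55.0 ± 6.79 CPM (log2 fold change -0.30, SE 0.10, adjusted P = 0.0278). The other calls, named after their values were seen, were the Nogo receptor genes Rtn4r (-0.56, SE 0.10, adjusted P = 5.90e-04) and Rtn4rl1 (-0.27, SE 0.08, adjusted P = 0.0238). With the regional scores as covariates, 0 of 8 passed in NT mice, and Rtn4rl2 was at -0.23 (adjusted P = 0.448). Crtac1, whose product blocks the Nogo receptor, passed over both pressures at -0.24 (SE 0.08, adjusted P = 0.0286). Otx2, a homeoprotein that nets take up from outside, passed there at 1.14 (SE 0.39, adjusted P = 0.0292) with 0 to 60 counts per library. The 4 markers of choroid plexus, a known source of Otx2, summed to 2.10 to 27.1 CPM, and their part in this was not tested. The link protein genes outside the members were not called, with Hapln2, of nodes of Ranvier, at 0.19 (SE 0.14) and Hapln3 at 0.53 (SE 0.23) in NT mice.

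Of 4 pairs of a member and a marker of its known source, none had an adjusted P under 0.05 for both r and rho, over 8 relations in sham and stroke libraries apart. Pvalb, the marker of the cells that nets wrap, and Acan went in opposite directions, with r of -0.74 in 12 stroke libraries (permutation P = 0.00665, adjusted P = 0.037) and rho of -0.72 (permutation P = 0.0109, adjusted P = 0.0618), and r of -0.65 without the 2 libraries farthest from the median of Pvalb. In sham libraries r was -0.53 (permutation P = 0.0724, adjusted P = 0.0966) and rho -0.66 (permutation P = 0.0232, adjusted P = 0.0618). Pdgfra, of oligodendrocyte precursors, and Vcan had r of 0.60 in sham libraries (permutation P = 0.0359, adjusted P = 0.0574, rho 0.62, permutation P = 0.0374) and 0.64 in stroke libraries (permutation P = 0.0251, adjusted P = 0.0502, rho 0.66, permutation P = 0.0230). Without the 2 farthest libraries these were 0.55 (permutation P = 0.0972) and 0.54 (permutation P = 0.118). Gfap and Tnc had r of 0.78 in stroke libraries (permutation P = 0.0126, adjusted P = 0.0370) but rho of 0.37 (permutation P = 0.235), and Col1a1 and Tnc r of 0.69 (permutation P = 0.0139, adjusted P = 0.0370) and rho of 0.44 (permutation P = 0.154). Without the 2 farthest libraries r was -0.30 for Gfap and -0.07 for Col1a1, so both rested on those libraries. In sham libraries r was 0.08 for Gfap (rho -0.22) and 0.09 for Col1a1 (rho 0.05).

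Over the 24 libraries, after the mean of each group was subtracted, the genes most like each member in log2 CPM were found among 14072 genes. These correlations are a description, and the points share their libraries, depth and regional content. Tnr was most like Fam20b (r 0.93), the kinase that primes chondroitin chain synthesis, and then Pcnx (0.92) and Cdc42bpa (0.92). Ptprz1 was most like Slc4a4 (0.93), a bicarbonate transporter of astrocytes, Serinc5 (0.93) and Rragd (0.92). Hapln4 was most like Clstn1 (0.93), a synaptic cadherin relative, D17Wsu92e (0.90) and Ppme1 (0.90), and Bcan like Atp13a2, Ptpn23 and Arsa (all 0.91). Acan was most like Masp1 (0.89), Mdga1 (0.88) and Asb2 (0.87), and Hapln1 like Rnf138 (0.85), Map4 (0.85) and Osbpl9 (0.83). The lower likenesses were those of Vcan with Nemp1 (0.83), Thap2 (0.76) and Zswim5 (0.74), Tnc with Mr1 (0.83), Lpcat2 (0.82) and Gbp4 (0.80), and Ncan with Nav1 (0.74), Plekhm3 (0.72) and Prc1 (0.71). Among the members themselves, the most alike were Hapln1 and Ptprz1 (0.76), and the most opposed were Bcan and Hapln1 (-0.74), Bcan and Tnr (-0.71), and Hapln4 and Ptprz1 (-0.71).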

How the data were processed

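Poly(A) RNA was sequenced on an Illumina HiSeq instrument, and reads were mapped to the Ensembl mouse genome and annotation. The submitters' processing notes name featureCounts 1.5.0-p3 and DESeq2 1.20.0, and the aligner is not given in the sources used here. The authors deposited 4 tables, 1 per comparison of groups, with counts per gene that were not normalized and with FPKM values, which within a library are proportional to count over gene length. The tables were joined by gene identifier into 33981 genes and 24 libraries. The deposited 48 columns of normalized counts and 8 of group means were not used, nor were the columns of the authors' own fold changes and p-values. GEO lists 1 record per group and the tables number 6 libraries, each treated as 1 mouse. If libraries were not separate mice, p-values measure only the spread between libraries. No sequencing batch is given, so batches could not be examined.

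Counts were tested in R 4.3.3 with edgeR 4.0.16 (two-sided quasi-likelihood test, robust, TMM scaling, filterByExpr with a minimum count of 10 and a minimum total of 15), fitted on all genes, and P-values were adjusted by Benjamini and Hochberg's method across every gene tested, with a threshold of 0.05. All 9 members passed the filter in every comparison. A gene across libraries is given in CPM on TMM-scaled library sizes, and levels between genes in FPKM. Relations across libraries used 100000 random pairings, two-sided. Alternatives were DESeq2 1.42.0, limma 3.58.1 on log2(FPKM + 1) and log2(FPKM + 0.1), other scalings and filters, all 4 groups in 1 fit, regional scores as covariates, a library number block, and each library left out. Total counts of 15922919 to 24865998 per library set the depth, and counts cover reads, not molecules. The members and lists were chosen with earlier results of these data known. Named genes were the 9 members, the markers in the relations and the 3 genes most like each member. From each list of genes around the members, up to 4 with the smallest P over both pressures were named. Any listed gene called in an angiotensin II comparison or the interaction was to be named too (0 were called). Outside this rule, the marker genes Doc2g, Pcp4l1, Th, Syt2, Kcnc2, Mbp, Mag and Mog were named after their values were seen. The fits were tested on simulated data. HT + Stroke libraries 1 and 6 and HT + Sham library 6 were left out in an alternative added after their markers were seen, and the relations with regional scores were also added then. Since injury markers set the 3 libraries apart, fits without them are no separate support for a gene that follows injury. The sequences are from RefSeq (GRCm38.p6), and gene positions in the tables were the same in GENCODE release M21.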

Additional observations from a re-analysis of the deposited data

Results flagged for a closer look

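Of 36 sets of 6 libraries (9 members in 4 groups), 2 held a library far from the others, where the gap to its nearest neighbour divided by the range passed Dixon's critical value of 0.625. Chance gives about 1 such set in 20. Hapln4 was at 144.2 CPM in NT + Sham library 3, below the 156.8 to 163.5 CPM of the other 5. Tnr was at 96.2 CPM in NT + Sham library 4, above the 59.6 to 70.2 CPM of the other 5. Without that library the log2 fold change of Tnr in NT mice was -0.19, the smallest in size of the fits that left out a library.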

How the results depend on the processing

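In NT + Stroke vs NT + Sham the count of members called was 3, beside 4365 of all 16835 genes tested. It was 1 (Hapln4) with all 4 groups in 1 fit, beside 3774 of 17608 genes. With the bulb and striatal scores as covariates it was 0, beside 782 of 16835 genes. For stroke over both pressures it was 1, beside 4436 of 17608 genes, and 0 with those scores, beside 1168. It was 2 without the 3 libraries that stood apart, beside 5660 of 17943 genes. When 1 library was left out it was from 1 to 2, beside 3991 to 4909 genes (2 without HT + Stroke library 1, with Tnc added). At an unadjusted P under 0.05 with edgeR the count was 3 for stroke over both pressures, beside 6306 of 17608 genes. It was 2 for the interaction, beside 1836 of 17608 genes, and 2 for HT + Stroke vs NT + Stroke, beside 1230 of 17008. For HT + Sham vs NT + Sham it was 1, beside 1332 of 16581 genes. Nothing is read from these counts about the members as a group.

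Log2 fold changes that turned direction were all of genes not called in that comparison. With the regional scores, NT mice gave log2 fold changes of -0.0141 for Ncan, -0.115 for Hapln1 and -0.0835 for Ptprz1, and HT mice 0.33 for Acan and 0.0482 for Ptprz1. With all genes of at least 1 count, Ncan in NT mice was at -0.0067. Hapln1 in HT mice was at -0.0065 with DESeq2, -0.0067 with no scaling, -0.0056 with all genes of at least 1 count and -0.0097 with 1 fit of all groups, and Acan there was at 0.0401 without the 3 libraries. With 1 library left out, the ranges were -0.0255 to 0.0569 for Ncan and -0.0033 to 0.1245 for Hapln1 in NT mice, and -0.0691 to 0.0474 for Hapln1 in HT mice. The r of Tnc with Gfap and with Col1a1 in stroke libraries, which had an adjusted P of 0.0370 each, also turned. Without the 2 libraries farthest from the median, r was -0.27 for Gfap and Tnc in sham and -0.30 in stroke libraries, and -0.0127 for Col1a1 and Tnc in sham and -0.0729 in stroke libraries.

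Of the single values, 7 gained and 11 lost a call under a setting other than a left-out library. With no scaling, the calls over all genes in NT mice were 2987 higher and 1021 lower (74.5% higher), against 2426 and 1939 (55.6%), and over both pressures 71.1% against 54.9% were higher. Members called in NT mice with no scaling were Acan, Hapln4, Tnc and Bcan (0.19, adjusted P = 0.0282), and DESeq2 added Tnr to the first 3 (adjusted P = 0.0287). Taking shares from CPM in place of FPKM moved the lectican shares, for example Bcan in NT + Sham from 79.1% to 67.4%. Deviations of same-numbered libraries correlated between -0.38 and 0.26, and at most 1 of 6 correlated best with its own number. No pairing by number was seen, but the labels do not say what the numbers mean, and this check cannot exclude a pairing. With the library number as a replicate block, Tnr was added in NT mice (adjusted P = 0.0277) and no other member changed its call. The low counts of Tnc and Acan limit what these libraries can show of them.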

Other observations

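Among 6 markers of parvalbumin interneurons, the cells that nets are known to wrap, Syt2 passed between HT + Stroke and HT + Sham. Syt2, a vesicle calcium sensor of fast-spiking terminals, had a log2 fold change of 0.72 (SE 0.12, edgeR adjusted P = 0.0180), and 0.55 (SE 0.12, adjusted P = 0.0113) without the 3 libraries that stood apart. Pvalb was at 0.45 (SE 0.16, adjusted P = 0.179). The median over the 6 markers was 0.41 in HT mice and -0.11 in NT mice, where Kcnc2 was the 1 call, at -0.43 (SE 0.09, adjusted P = 0.00221). Of all genes tested, 0.544% were higher in HT mice and 11.5% lower in NT mice. In the interaction of hypertension and stroke, 0 of the 6 markers passed. Over both pressures Syt2 was higher (0.36, SE 0.13, adjusted P = 0.0422), a call lost without the 3 libraries (0.24, adjusted P = 0.145). Kcnc2, a fast potassium channel gene, was lower over both pressures (-0.32, SE 0.07, adjusted P = 8.12e-04) and also without the 3 libraries (-0.38, adjusted P = 1.78e-04). With the regional scores as covariates neither passed.

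Myelin genes passed in unequal number at each pressure, and 0 of 4 passed in the interaction of hypertension and stroke. Of all genes tested, 14.4% were higher after stroke in NT mice and 0.544% in HT mice. In NT mice Mbp was the only 1 of 4 markers of mature oligodendrocytes that passed, at 0.30 (SE 0.10, edgeR adjusted P = 0.0295). Mag, Mbp and Mog, 3 of the 4, passed in HT mice with log2 fold changes of 0.54 (SE 0.08), 0.49 (SE 0.08) and 0.53 (SE 0.09), and without the 3 libraries of 0.51, 0.45 and 0.51. All 4 were higher over both pressures, beside 13.8% of all genes. With the regional scores as covariates 2 (Mag and Mbp) were, beside 895 of 17608 genes. Striatal markers were higher over both pressures in 6 of 6, beside the same 13.8%, but 0 of 6 passed in NT mice and 0 of 6 in HT mice. The regional scores entered the fit together, and the part of the striatal score alone was not tested.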
